A study of Homo sapiens with 12 samples.

Results

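Transcript levels of 10 genes for myeloid lineage transcription factors were followed through TNF-α treatment of promyelocytes and granulocytes. The genes were *CEBPA*, *CEBPB*, *CEBPD*, *CEBPE* and *CEBPG* of the C/EBP family, together with *SPI1*, *GFI1*, *MYB*, *RUNX1* and *BCL6*. They were taken by symbol from a table of 58288 genes, in which each of the 10 had 1 row. The set was drawn up with earlier results of these data known.

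The cells were HL-60/S4, a subline of the HL-60 leukemia line that grows as promyelocytes. Promyelocytes were the undifferentiated cells, and granulocytes were the same line after 1 µM all-trans retinoic acid (ATRA) for 4 days. Each cell type was given either TNF-α at 16 ng/mL or the same volume of water (vehicle) for 2 h, in medium supplemented with calcium, at 8 passages. There were 3 libraries in each of 4 groups, each library from a flask of its own, so the p-values measure the spread between flasks of 1 leukemia line. Promyelocytes and granulocytes were treated in independent experiments, so cell type and experiment cannot be told apart wherever levels or TNF-α responses are compared between them.

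Lineage transcription factors act as a network that carries a progenitor towards the neutrophil. PU.1 (encoded by *SPI1*), *RUNX1* and C/EBPα open the myeloid program, and *MYB* keeps progenitors dividing and is normally shut down as they mature. C/EBPε and *GFI1* act later, in the maturation of granulocytes, while C/EBPβ and C/EBPδ are better known from inflammation and from the granulocyte production that infection calls for. *BCL6* is a repressor first described in germinal centre B cells, which in macrophages also occupies inflammatory genes that NF-κB activates.

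The libraries held between 22829189 and 31895061 read pairs assigned to genes (median 28233190). A floor of 3 counts was equal to 0.0941 to 0.131 CPM, the unit of counts scaled to library size, and *BCL6*, the member with the fewest reads, had 46 to 185 of them per library. Levels are given as CPM on the TMM scale of all 12 libraries. The cell type labels were checked against marker genes. The summed CPM of 5 promyelocyte markers was 7320 to 8150 in vehicle promyelocytes, 6070 to 6970 in TNF-α treated promyelocytes and 2130 to 2350 across the granulocyte libraries. Most of this sum was *MPO*, which averaged 6430 and 5380 CPM in vehicle and TNF-α treated promyelocytes and 2020 and 1990 CPM in granulocytes. *ELANE*, encoding neutrophil elastase, was at or under 3 counts in the granulocyte libraries. It was low in promyelocytes too, at 1.79 CPM with vehicle and 1.17 CPM with TNF-α. The sum of 8 granulocyte markers was 155 to 278 in promyelocytes and 4700 to 5560 in granulocytes, although *FCGR3B*, a defining marker of mature neutrophils, was at or under 3 counts in every library. Of 8 monocyte and macrophage markers, *CD163*, *MRC1* and *MSR1* were at or under 3 counts in every library, and the sum of the list lay between 2.93 and 4.8 CPM in promyelocytes. In granulocytes it was 49.3 to 51.5 CPM with vehicle and 30.9 to 34.3 CPM with TNF-α. The sum of 6 lymphocyte markers stayed between 13.5 and 23.3 CPM, and that of 6 erythroid markers did not exceed 2.06 CPM. These are bulk libraries, in which fewer cells with a transcript and less transcript per cell cannot be told apart.

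A promoter sequence of *GFI1*, the member with the largest TNF-α response in granulocytes, is shown here together with short stretches at *BCL6*, the member that was called lower in promyelocytes and higher in granulocytes. *GFI1* lies on chr1:92474762-92486876 on the minus strand of hg38, and *BCL6* on chr3:187721377-187745727, also on the minus strand. RefSeq promoter windows of GRCh38.p14, from 250 bases before to 50 bases after a transcript start, were given for 8 of the 10 members (13 windows) and not for *CEBPD* and *SPI1*. Each window was searched on both strands for a short motif of NF-κB (GGGNNTTTC, shortened from a longer consensus), C/EBP (TTGCNNAA), PU.1 (GAGGAAGT), RUNX (TGTGGTT), *MYB* (TAACNG), *GFI1* (AAATCAC) and *BCL6* (TTCNNGGAA), where N is any base. The NF-κB and *GFI1* motifs were shortened after a first search with longer forms had been seen. The 8 matches fell in 5 windows and did not overlap each other. Below are the 250 bases before the *GFI1* start at the second of its 3 windows, in which no annotated exon of the gene lies, and 29 bases around BCL6-type and NF-κB-type matches at the starts of *BCL6*, where all 250 bases before each start lie in annotated exons of the gene. All are read 5′ to 3′ on the gene's strand with the motif matches in capitals.
GFI1, chr1:92486100-92486349: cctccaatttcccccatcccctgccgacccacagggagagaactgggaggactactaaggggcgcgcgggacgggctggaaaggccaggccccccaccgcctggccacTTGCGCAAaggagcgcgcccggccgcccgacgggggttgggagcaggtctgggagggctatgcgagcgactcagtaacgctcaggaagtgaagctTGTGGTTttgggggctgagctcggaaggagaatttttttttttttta
BCL6, BCL6-type match before the first start, chr3:187745478-187745506: gaagctcaaaTTCCGAGAAttgagctctg
BCL6, BCL6-type match after the first start, chr3:187745419-187745447: ggtgatgcaagaagtTTCTAGGAAaggcc
BCL6, NF-κB-type match before the second start, chr3:187736630-187736658: ggcttacggtGAAAAGCCCaaggcccagc

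At this *GFI1* start the C/EBP match, which reads alike on both strands, began 142 bases before the start, and the RUNX match 47 bases before it. Among all 35116 RefSeq windows, 10.5% held the C/EBP motif and 4.27% the RUNX motif. The BCL6-type matches began 28 bases before and at base 37 after the first *BCL6* start, and 4.45% of all windows held this motif. The NF-κB-type match, on the opposite strand, began 147 bases before the second *BCL6* start, and 4.78% of all windows held that motif. It was found with the shortened letters and is not given as a match to the longer consensus. The other matches were a *MYB* motif (20.8% of all windows) at *CEBPB*, a *BCL6* motif at *CEBPE* and a RUNX motif at the second *BCL6* start. The PU.1 letters, found in 2.59% of all windows, and the *GFI1* letters, found in 3.14%, were not in the 13 windows. A match is a description of these letters and does not show that a factor binds there.

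In granulocytes all 10 genes were called after 2 h of TNF-α, with 6 lower and 4 higher (edgeR, adjusted p under 0.05). The smallest of these calls, the rise of *CEBPD*, was lost in 9 of 12 alternative fits, which left 3 members higher. *GFI1*, *MYB* and *CEBPE* fell by more than 1 on the log2 scale, *BCL6* rose by more than 1, and *SPI1* rose 1.92-fold. A large share of the transcriptome also moved: 49.2% of the 16944 genes tested were called in granulocytes, 24.4% higher and 24.8% lower. The median log2 change of the members was -0.21, beside 0 over all genes tested. In promyelocytes 6 members fell, 1 rose and 3 did not pass the test. The rise, of *SPI1*, was lost in 4 of the 6 fits without 1 library (those without vehicle or TNF-α replicate 2 or 3), which left 0 members higher. There 14.8% of 16250 genes were called, 8.15% higher and 6.65% lower. The counts of calls in the gene lists below are to be read beside these shares of each cell type. The median of the members there was -0.41, beside -0.01 over all genes. The vehicle and TNF-α libraries did not overlap for 10 of 10 members in granulocytes and for 8 of 10 in promyelocytes, compared with 55.1% and 30.9% of the genes tested.

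**Figure D1:**
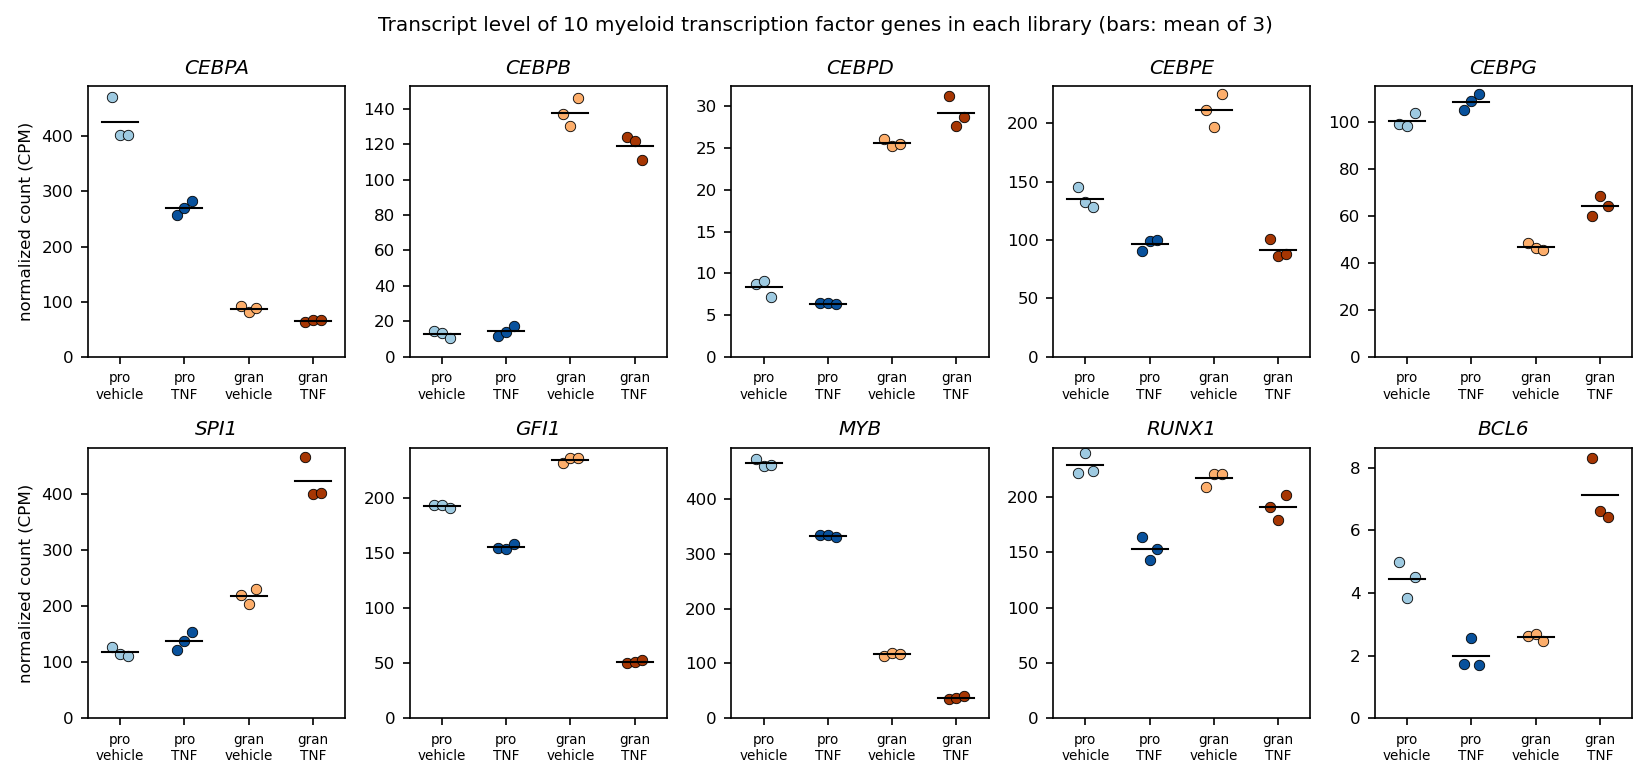
Normalized counts (CPM, linear axis from 0, a scale of its own in each panel) of the 10 genes, with 1 point per library and a bar at the mean of 3 libraries, for vehicle and TNF-α treated promyelocytes (pro) and granulocytes (gran). *GFI1* and *MYB* have their lowest levels in the 3 TNF-α treated granulocyte libraries, and *BCL6* moves down in promyelocytes and up in granulocytes.

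*GFI1* encodes a zinc finger repressor that neutrophil development requires. Its level was 194, 194 and 191 CPM in vehicle promyelocytes and 155, 154 and 159 CPM after TNF-α. In granulocytes it was 232, 237 and 237 CPM with vehicle and 50.6, 51.3 and 52.6 CPM with TNF-α. Vehicle granulocytes thus had the highest level of the 4 groups and TNF-α treated granulocytes the lowest, with no overlap between any of them. The fall was 4.62-fold in granulocytes (log2 -2.21 ± 0.051 SE, edgeR adjusted p = 6.97e-30), the 56th largest decrease among the 16944 genes tested. It was 1.22-fold in promyelocytes (log2 -0.29 ± 0.0543, edgeR adjusted p = 0.000861). The granulocyte minus the promyelocyte response was -1.88 ± 0.0689 on the log2 scale (edgeR interaction, adjusted p = 6.4e-17).

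*GFI1* works through corepressors, and its paralog and these partners were read as a list. Of 6 listed genes 5 were tested. In granulocytes 1 rose and 3 fell. In promyelocytes 1 fell and none rose by edgeR or DESeq2, with 1 higher at an unadjusted p under 0.05. *EHMT2*, a histone methyltransferase, fell from 50.4 ± 1.52 to 28.9 ± 1.81 CPM (SD, n = 3 each) in granulocytes and from 112 ± 8.18 to 86.3 ± 6.34 CPM in promyelocytes, by log2 -0.82 and -0.35 (edgeR adjusted p = 5.92e-14 and 9e-04). *RCOR1*, a scaffold of corepressor complexes, fell by 0.22 on the log2 scale in granulocytes and *HDAC2*, a histone deacetylase, rose by 0.19 (edgeR adjusted p = 0.000432 and 0.00184).

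*MYB* (chr6:135181315-135219173, plus strand), the gene of the progenitor factor, stood at 472, 461 and 462 CPM in vehicle promyelocytes and at 334, 335 and 330 CPM with TNF-α. In granulocytes it stood at 113, 119 and 118 CPM with vehicle and at 35, 36.2 and 41.5 CPM with TNF-α. The 4 groups did not overlap, and TNF-α lowered the level from both of the starting points. The decrease was 1.37-fold in promyelocytes (log2 -0.46 ± 0.0537 SE, edgeR adjusted p = 2.85e-06) and 3.15-fold in granulocytes (log2 -1.65 ± 0.0592, edgeR adjusted p = 8.91e-24), where it ranked as the 175th largest decrease. The difference between these responses was -1.16 ± 0.0795 (edgeR interaction, adjusted p = 1.84e-11).

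A list of 8 genes that *MYB* is known to activate in progenitors gave 3 increases and 5 decreases in granulocytes and 1 increase and 2 decreases in promyelocytes, with medians of -0.29 and 0.03 beside all-gene medians of 0 and -0.01. *KIT*, the stem cell factor receptor, fell in granulocytes from 25.6 ± 0.342 to 2.59 ± 0.459 CPM (log2 -3.30 ± 0.109 SE, edgeR adjusted p = 6.97e-25). In promyelocytes *KIT* fell from 4.2 ± 0.717 to 1.98 ± 0.308 CPM (log2 -1.06, edgeR adjusted p = 0.000552). *PPP1R16B*, a phosphatase regulatory subunit, also fell in granulocytes, by 0.64 on the log2 scale, while *FLT3*, a receptor tyrosine kinase of progenitors, and *CCNE1*, a cyclin of the G1 to S transition, rose by 0.48 and 0.38 (edgeR adjusted p = 6.86e-13, 0.000288 and 0.00238). With vehicle, *KIT* and *PPP1R16B* (3.43 CPM in promyelocytes, 114 CPM in granulocytes) were higher in granulocytes, where *MYB* was lower. In that comparison 2 genes of the list were called higher and 4 lower, beside 35.7% and 36.3% of all genes tested. The largest increase of the list in both cell types was *CD34*, from 0.0939 to 0.791 CPM in promyelocytes and from 0.0477 to 2.28 CPM in granulocytes. With vehicle it was under the level of 3 counts, so it could only be called higher. The paralogs and coactivators of *MYB* gave 0 calls by edgeR among 6 genes in promyelocytes (2 at an unadjusted p under 0.05, 1 call by DESeq2) and 3 increases and 2 decreases in granulocytes. Of these, *MYBL2*, the paralog expressed in dividing cells, rose from 99.3 ± 5.62 to 116 ± 5.97 CPM and *MYBL1* fell from 1.66 ± 0.44 to 0.932 ± 0.183 CPM (edgeR adjusted p = 0.00131 and 0.0137). *KMT2A*, a histone methyltransferase, rose by 0.32 on the log2 scale and *MEN1*, which encodes its partner menin, fell by 0.29 (edgeR adjusted p = 6.09e-06 and 0.00113).

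*CEBPE* (chr14:23117304-23119616, minus strand) encodes C/EBPε, the C/EBP factor of late granulocyte maturation. Its level was 145, 133 and 128 CPM in vehicle promyelocytes and 90.6, 99.5 and 99.9 CPM with TNF-α. In granulocytes it was 211, 197 and 225 CPM with vehicle and 101, 86.7 and 87.7 CPM with TNF-α. The higher level of vehicle granulocytes was thus absent after TNF-α, when both cell types ranged over 86.7 to 101 CPM and overlapped. The decrease was 2.32-fold in granulocytes (log2 -1.22 ± 0.0561 SE, edgeR adjusted p = 2.6e-20) and 1.38-fold in promyelocytes (log2 -0.46 ± 0.0614, edgeR adjusted p = 1.42e-05). The responses differed by -0.71 ± 0.0927 (edgeR interaction, adjusted p = 1.58e-06).

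Granule genes were read beside *CEBPE* because C/EBPε is known to activate genes of the specific granules. Of 14 genes for specific and gelatinase granules, 3 passed the filter on low counts in promyelocytes, where 1 rose, and 4 in granulocytes, where 3 rose. Neither edgeR, at an adjusted or unadjusted p, nor DESeq2 called a decrease. Lactoferrin (*LTF*), lipocalin 2 (*LCN2*) and *MMP8* had 0 to 2 counts in every library, so no fold is given. *MMP9*, the gelatinase, rose in both cell types, from 2.45 ± 0.229 to 14.5 ± 1.93 CPM in promyelocytes and from 1.6 ± 0.183 to 19.2 ± 3.11 CPM in granulocytes (log2 2.59 and 3.57, edgeR adjusted p = 1.67e-11 and 9.76e-23). *CHI3L1*, a chitinase-like glycoprotein of these granules, rose in granulocytes from 1.76 ± 0.39 to 5.4 ± 0.248 CPM (log2 1.59, edgeR adjusted p = 1.64e-09) and did not pass in promyelocytes (log2 0.18, edgeR adjusted p = 0.538). Among 9 primary granule genes, 1 rose and 3 fell in promyelocytes, and 1 rose and 1 fell of 7 tested in granulocytes. The increase was *SRGN*, the granule proteoglycan serglycin, in both cell types (log2 0.19 and 0.55, edgeR adjusted p = 0.037 and 6.58e-11), and the granulocyte decrease was *MS4A3*, a membrane protein of myeloid progenitors (log2 -0.17, edgeR adjusted p = 0.0043).

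*CEBPA* (chr19:33299934-33302564, minus strand, a single exon) encodes C/EBPα, which commits progenitors to the granulocyte and monocyte lineage. It was at 471, 403 and 403 CPM in vehicle promyelocytes and at 258, 270 and 282 CPM with TNF-α. Granulocytes had 92.9, 80.9 and 88.9 CPM with vehicle and 63.2, 65.9 and 66.3 CPM with TNF-α. Every TNF-α library lay below every vehicle library of its cell type. The decrease was 1.55-fold in promyelocytes (log2 -0.63 ± 0.0633 SE, edgeR adjusted p = 3.27e-07) and 1.36-fold in granulocytes (log2 -0.44 ± 0.055, edgeR adjusted p = 1.72e-08). The difference between the responses, 0.23 ± 0.0896, did not pass (edgeR interaction, adjusted p = 0.0641), and it was -0.09 after removal of the trends that libraries showed with exon GC content and length.

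*CEBPB*, whose protein drives inflammatory and emergency myelopoiesis genes, ranged over 130 to 146 CPM in vehicle granulocytes and 111 to 124 CPM in TNF-α treated granulocytes. It fell 1.17-fold there (log2 -0.22 ± 0.0526 SE, edgeR adjusted p = 0.000593). In promyelocytes *CEBPB* ranged over 10.8 to 14.8 CPM with vehicle and 11.9 to 17.3 CPM with TNF-α, which overlap (log2 0.19, edgeR adjusted p = 0.364). *CEBPD*, another inflammatory C/EBP gene, was at 25.2 to 26.1 CPM in vehicle granulocytes and 27.6 to 31.2 CPM with TNF-α (log2 0.17 ± 0.0675, edgeR adjusted p = 0.032), a difference that became -0.02 with the GC content and length trends removed and also lost the threshold in 8 of the other alternatives, among them the fits without vehicle replicate 1, 2 or 3 and without TNF-α replicate 1 (log2 0.13 to 0.22 over the 6 fits without 1 library). In promyelocytes *CEBPD* was at 7.22 to 9.09 and 6.27 to 6.43 CPM (log2 -0.36 ± 0.122, edgeR adjusted p = 0.0521). *CEBPG*, which encodes a C/EBP protein without an activation domain of its own that pairs with other bZIP factors, rose 1.36-fold in granulocytes, from 48.3, 46.5 and 45.6 to 60.1, 68.4 and 64.2 CPM (log2 0.44 ± 0.0577, edgeR adjusted p = 3.75e-08). In promyelocytes it ranged over 98.4 to 104 and 105 to 112 CPM, without overlap but short of the threshold (log2 0.14, edgeR adjusted p = 0.121).

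Per kilobase of merged exon, the mix of C/EBP transcripts varied among the 4 groups. Merged exons join all annotated transcripts of a gene, so comparisons between genes on this scale depend on the annotation. *CEBPA* made up 57.3% ± 1.05 (SD, n = 3) of the summed C/EBP level in vehicle promyelocytes and 51.4% ± 0.473 with TNF-α. In granulocytes its share was 12.7% ± 0.571 and 14.4% ± 0.966. The share of *CEBPE*, 30.9% and 31.1% in promyelocytes, went from 51.9% ± 0.643 in vehicle granulocytes to 34.2% ± 1.77 with TNF-α. *CEBPB* then had a share similar to that of *CEBPE*, 35.2% ± 1.11, after 26.8% ± 0.328 with vehicle, although its own level had fallen. The shares of *CEBPD* and *CEBPG* in granulocytes were 4.49% and 4.07% with vehicle and 7.75% and 8.45% with TNF-α. The summed level went from 282 ± 21.1 to 200 ± 9.73 CPM per kb in promyelocytes and from 262 ± 14.4 to 173 ± 7.36 CPM per kb in granulocytes, without overlap between vehicle and TNF-α libraries. These shares were not tested.

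**Figure D2:**
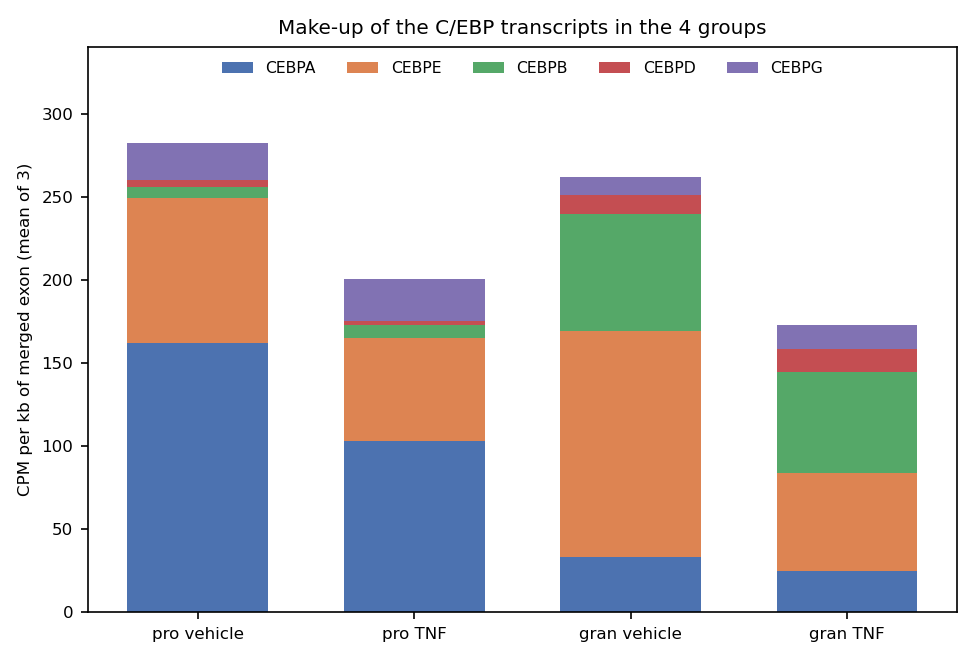
Mean level of each C/EBP gene in CPM per kb of merged exon (linear axis from 0, mean of 3 libraries), stacked for the 4 groups. *CEBPA* takes up most of the promyelocyte bars, *CEBPE* most of the vehicle granulocyte bar, and *CEBPB* and *CEBPE* have nearly equal parts of the TNF-α treated granulocyte bar.

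A list of 8 partners and regulators of the C/EBP proteins gave 0 increases by edgeR (1 at an unadjusted p under 0.05, 1 by DESeq2) and 2 decreases in promyelocytes, and 2 increases and 3 decreases in granulocytes. *ATF4*, a stress-induced bZIP factor that pairs with C/EBPγ, rose in granulocytes from 231 ± 14.3 to 363 ± 31.3 CPM (log2 0.64 ± 0.055 SE, edgeR adjusted p = 1.94e-12), and in promyelocytes it was 364 ± 27.9 and 382 ± 17.5 CPM (edgeR adjusted p = 0.351). *DDIT3*, whose product CHOP blocks C/EBP binding, rose by 0.32 on the log2 scale in granulocytes (edgeR adjusted p = 0.00738). *TRIB2*, an adaptor known for directing C/EBPα to degradation, fell from 32.7 ± 0.911 to 7.15 ± 1.08 CPM in granulocytes and from 13.9 ± 0.582 to 8.9 ± 0.412 CPM in promyelocytes (log2 -2.22 and -0.62, edgeR adjusted p = 3.81e-22 and 0.00011). *SMARCA2*, an ATPase of the SWI/SNF remodeling complex, fell by 0.50 in granulocytes (edgeR adjusted p = 3.88e-11).

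*SPI1* (chr11:47354860-47378576, minus strand) encodes PU.1, the ETS factor of the myeloid lineages. It was at 127, 115 and 111 CPM in vehicle promyelocytes and at 121, 138 and 154 CPM with TNF-α. In granulocytes it was at 219, 203 and 231 CPM with vehicle and at 465, 400 and 402 CPM with TNF-α. The granulocyte groups were far apart, whereas the lowest TNF-α treated promyelocyte library lay below the highest vehicle library. The rise was 1.92-fold in granulocytes (log2 0.94 ± 0.0555 SE, edgeR adjusted p = 4.44e-17). In promyelocytes it was 1.19-fold (log2 0.25 ± 0.0736, edgeR adjusted p = 0.0249), and it passed the threshold in 2 of the 6 fits without 1 library: the adjusted p was 0.05 or more without vehicle replicate 2 or 3 and without TNF-α replicate 2 or 3. The responses differed by 0.73 ± 0.105 (edgeR interaction, adjusted p = 7.28e-06).

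Of 12 ETS factors and PU.1 partners, 10 were tested in promyelocytes with 3 increases and 2 decreases, and 9 in granulocytes with 4 increases and 3 decreases. *IRF8*, a partner of PU.1 that favours monocytes over neutrophils, had the largest change in the list, from 0.331 ± 0.124 to 10.3 ± 1.12 CPM in granulocytes (log2 4.90 ± 0.211 SE, edgeR adjusted p = 3.08e-21). In promyelocytes *IRF8* rose from 2.15 ± 0.214 to 3.55 ± 0.496 CPM (log2 0.75 ± 0.186, edgeR adjusted p = 0.00871), and the responses differed by 4.19 ± 0.301 (edgeR interaction, adjusted p = 4.27e-11). The ETS family factors split in granulocytes, where *ETS1* rose by 0.80 on the log2 scale while *FLI1* and *GABPA* fell by 0.79 and 0.36 (edgeR adjusted p = 8.94e-05, 1.69e-16 and 1.1e-06).

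Receptor and oxidase genes known as targets of PU.1 and the C/EBP factors did not move in 1 direction. Of 14 listed genes 12 were tested, with 3 increases and 1 decrease in promyelocytes and 4 increases and 6 decreases in granulocytes. Over all genes tested 24.4% rose and 24.8% fell in granulocytes, and 8.15% rose and 6.65% fell in promyelocytes. A mix of directions is thus also what the whole transcriptome showed. *CSF2RB*, the common beta chain of the GM-CSF, IL-3 and IL-5 receptors, rose from 37.3 ± 1.3 to 72 ± 2.59 CPM in promyelocytes and from 164 ± 4.42 to 320 ± 14.7 CPM in granulocytes (log2 0.97 and 0.95, edgeR adjusted p = 4.42e-10 and 1.12e-18). *CSF2RA*, the alpha chain of the GM-CSF receptor, rose in granulocytes from 29.3 ± 2.17 to 50.7 ± 1.4 CPM (log2 0.78, edgeR adjusted p = 3.19e-13). Its sequence is shared by the X and Y chromosomes, so its count may be split. *FCGR1A*, a high-affinity IgG receptor, fell in granulocytes from 20.5 ± 1.91 to 11.2 ± 1.91 CPM, and *TLR4*, the endotoxin receptor, from 94.6 ± 2.17 to 56.4 ± 0.62 CPM (log2 -0.89 and -0.76, edgeR adjusted p = 5.63e-10 and 3.6e-15).

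*RUNX1* encodes the DNA-binding subunit of core binding factor. It was at 222, 240 and 224 CPM in vehicle promyelocytes and at 164, 143 and 153 CPM with TNF-α. Granulocytes had 209, 221 and 221 CPM with vehicle and 191, 179 and 202 CPM with TNF-α. Unlike that of *GFI1*, *MYB* and *CEBPE*, its response was the larger in promyelocytes, with a 1.47-fold decrease (log2 -0.56 ± 0.0625 SE, edgeR adjusted p = 1.56e-06) against 1.15-fold in granulocytes (log2 -0.20 ± 0.0509, edgeR adjusted p = 0.000985). The difference was 0.39 ± 0.0822 (edgeR interaction, adjusted p = 0.000759). The *RUNX1* row spans chr21:34787801-36004667 and 15574 bases of merged exon, so transcripts from its different starts were counted together.

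Of 8 RUNX family and cofactor genes 6 were tested, with 1 increase and 3 decreases in promyelocytes and 2 increases and 3 decreases in granulocytes. *RUNX3* rose in both cell types (log2 0.25 and 0.30, edgeR adjusted p = 0.00745 and 9.23e-06). *RUNX2* fell in both, from 77.9 ± 3.36 to 55.6 ± 5.32 CPM in promyelocytes and from 216 ± 12.7 to 105 ± 0.689 CPM in granulocytes (log2 -0.46 and -1.06, edgeR adjusted p = 8.33e-05 and 1.1e-19). *CBFB*, the shared non-DNA-binding subunit, changed little, at 157 and 156 CPM in promyelocytes and 163 and 179 CPM in granulocytes (edgeR adjusted p = 0.937 and 0.0414). *CBFA2T3*, a corepressor of the ETO family, fell by 0.28 on the log2 scale in granulocytes (edgeR adjusted p = 0.000281).

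*BCL6* had low counts and the only response of the 10 that was called in opposite directions. It was at 5, 3.83 and 4.52 CPM in vehicle promyelocytes and at 1.73, 2.57 and 1.7 CPM with TNF-α. The granulocyte levels were 2.62, 2.68 and 2.48 CPM with vehicle and 8.32, 6.63 and 6.42 CPM with TNF-α. The groups overlapped in neither cell type. *BCL6* fell 2.19-fold in promyelocytes (log2 -1.13 ± 0.195 SE, edgeR adjusted p = 0.000311), the 88th largest of the decreases there, and rose 2.71-fold in granulocytes (log2 1.44 ± 0.152, edgeR adjusted p = 3.49e-10). The difference between the responses was 2.61 ± 0.245 (edgeR interaction, adjusted p = 6.15e-09). Of 15393 genes tested in both cell types, 1.2% were called in opposite directions and 10.5% in the same direction.

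Genes that *BCL6* is known to repress were mostly higher in both cell types, in promyelocytes, where *BCL6* fell, and in granulocytes, where it rose. Over all genes tested 8.15% rose in promyelocytes and 24.4% in granulocytes. Whether *BCL6* had a part in the changes of this list was not tested. Of 12 listed genes 11 were tested, with 7 increases in promyelocytes and 9 in granulocytes and 0 decreases in either by edgeR at an adjusted or unadjusted p or by DESeq2, and the medians were 0.63 and 0.78 beside -0.01 and 0 over all genes. One of the increases, *CXCL10*, was at 0.224 and 0 CPM in vehicle promyelocytes and granulocytes. It passed the filter on low counts through the TNF-α libraries and could only be called higher. *CCL3*, a chemokine, rose from 0.459 ± 0.14 to 10.4 ± 0.504 CPM in promyelocytes and from 1.08 ± 0.0297 to 130 ± 9.03 CPM in granulocytes (log2 4.51 and 6.89, edgeR adjusted p = 6.37e-13 and 3.47e-37). *CDKN1A*, the cell cycle inhibitor p21, rose in granulocytes from 1.42 ± 0.231 to 20.5 ± 2.94 CPM (log2 3.82 ± 0.137 SE, edgeR adjusted p = 9.39e-24) and was at 0.673 ± 0.171 and 1.11 ± 0.129 CPM in promyelocytes (edgeR adjusted p = 0.133). Among the 5 tested genes of the *BCL6* paralog and corepressor list, 0 were called in promyelocytes by edgeR or DESeq2 (1 at an unadjusted p under 0.05), and in granulocytes *NCOR1*, a nuclear corepressor, fell by 0.21 on the log2 scale (edgeR adjusted p = 0.00053).

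**Figure D3:**
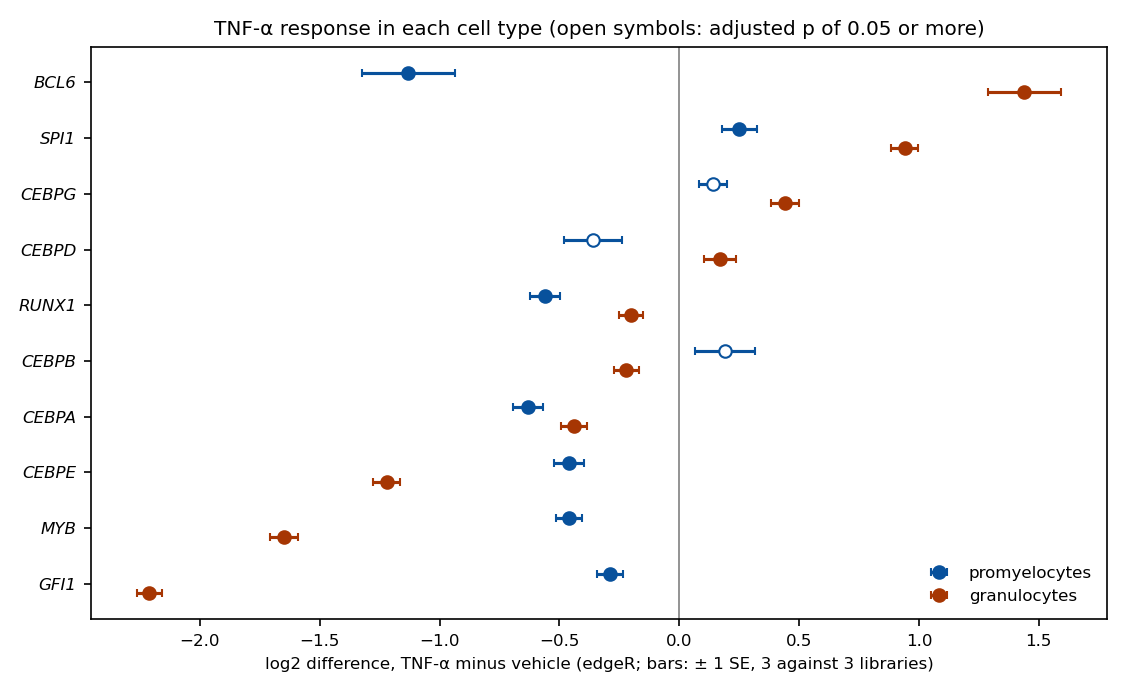
Log2 difference between TNF-α treated and vehicle libraries (edgeR, 3 against 3 libraries, bars ± 1 SE) for the 10 genes in promyelocytes (blue) and granulocytes (orange), ordered by the granulocyte value. Filled symbols mark an adjusted p under 0.05. *GFI1*, *MYB* and *CEBPE* lie further left in granulocytes, and *BCL6* lies at -1.13 and 1.44 on opposite sides of 0.

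The TNF-α response of granulocytes differed from that of promyelocytes for 9 of the 10 members, and 24% of 18124 genes passed the same interaction test (14.1% positive, 9.88% negative). Here too cell type and experiment cannot be told apart. The granulocyte response was the more negative for *GFI1*, *MYB*, *CEBPE* and *CEBPB* and the more positive for *BCL6*, *SPI1*, *CEBPD*, *RUNX1* and *CEBPG*. Values for *CEBPD*, *CEBPG* and *CEBPB* were 0.57 ± 0.127, 0.34 ± 0.0801 and -0.37 ± 0.137 (edgeR interaction, adjusted p = 0.00123, 0.00227 and 0.0478). *CEBPB* kept its call in 8 of 17 alternatives. *CEBPD* was at 0.17 (adjusted p = 0.368) with the GC content and length trends removed. Over all genes 58.9% of the called differences were positive, a share that was 44.2% to 48.4% with DESeq2 size factors, DESeq2, no filter, or the GC content and length trends removed, and under each of these the direction of all called member differences was as given.

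With vehicle alone, the cell types differed in level for 9 of the 10 members, of which 5 were higher and 4 lower in granulocytes, and 72% of 18124 genes were called in that comparison, 35.7% higher and 36.3% lower. The vehicle libraries of the cell types were without overlap for all 10 members and for 74.4% of the genes. Cell type and experiment cannot be told apart here. *CEBPB* was 10.6-fold higher in vehicle granulocytes (log2 3.41 ± 0.0982 SE, edgeR adjusted p = 3.48e-21) and *CEBPD* 3.07-fold higher (log2 1.62 ± 0.087, edgeR adjusted p = 2.6e-15). *SPI1*, *CEBPE* and *GFI1* were higher by 0.88, 0.64 and 0.29 on the log2 scale (edgeR adjusted p = 3.95e-11, 1.28e-09 and 5.29e-06). *CEBPA* was 4.86-fold lower (log2 -2.28 ± 0.0649), *MYB* 3.97-fold lower (log2 -1.99 ± 0.0558), *CEBPG* 2.14-fold lower and *BCL6* 1.72-fold lower (edgeR adjusted p = 2.58e-21, 1.94e-21, 1.29e-15 and 0.000233). *RUNX1* differed by -0.08 ± 0.0578, which did not pass (edgeR adjusted p = 0.241). Per kilobase, the order in vehicle promyelocytes ran from *CEBPA* (162 ± 14.8 CPM per kb, SD) through *CEBPE* (87.3 ± 5.62) and *MYB* (84.6 ± 1.15), which lay within each other's spread, to *GFI1* (58.5 ± 0.471) and *SPI1* (56.9 ± 3.91), which did so too. *CEBPG*, *RUNX1*, *CEBPB*, *CEBPD* and *BCL6* followed, at 22.7, 14.7, 6.61, 3.83 and 0.749 CPM per kb. *RUNX1*, at 229 CPM, was divided by 15574 bases of merged exon, so its place in these orders depends on the annotation. In vehicle granulocytes *CEBPE* led (136 ± 8.81), followed by *SPI1* (105 ± 6.8), and by *GFI1* (71.3 ± 0.929) and *CEBPB* (70.3 ± 3.95), which overlapped. *CEBPA* stood at 33.3, *MYB* at 21.3, *RUNX1* at 13.9, *CEBPD* at 11.7, *CEBPG* at 10.6 and *BCL6* at 0.437 CPM per kb. With TNF-α, *SPI1* led the granulocyte order at 204 ± 17.8 CPM per kb, and *GFI1*, at 15.6 ± 0.306, lay near *CEBPG*, at 14.6 ± 0.945.

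Other hematopoietic transcription factors, read for comparison, fell more often than they rose. Of 14 listed, 10 were tested in promyelocytes with 1 increase and 7 decreases, and 9 in granulocytes with 1 increase and 5 decreases. Over all genes tested 6.65% fell in promyelocytes and 24.8% in granulocytes. *ZEB2*, a zinc finger repressor of myeloid and other lineages, was the increase in both, from 212 ± 2.14 to 308 ± 17.4 CPM in promyelocytes and from 181 ± 8.55 to 430 ± 16.5 CPM in granulocytes (log2 0.56 and 1.24, edgeR adjusted p = 5.36e-07 and 7.63e-22). *LMO2*, a bridging protein of stem cell and erythroid complexes, fell from 31.3 ± 0.501 to 10.8 ± 1.29 CPM in granulocytes (log2 -1.54 ± 0.0816 SE, edgeR adjusted p = 1.7e-18). *IKZF2*, an Ikaros family factor, fell from 15.4 ± 0.276 to 6.81 ± 0.419 CPM in granulocytes (log2 -1.19, edgeR adjusted p = 5.64e-13).

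**Figure D4:**
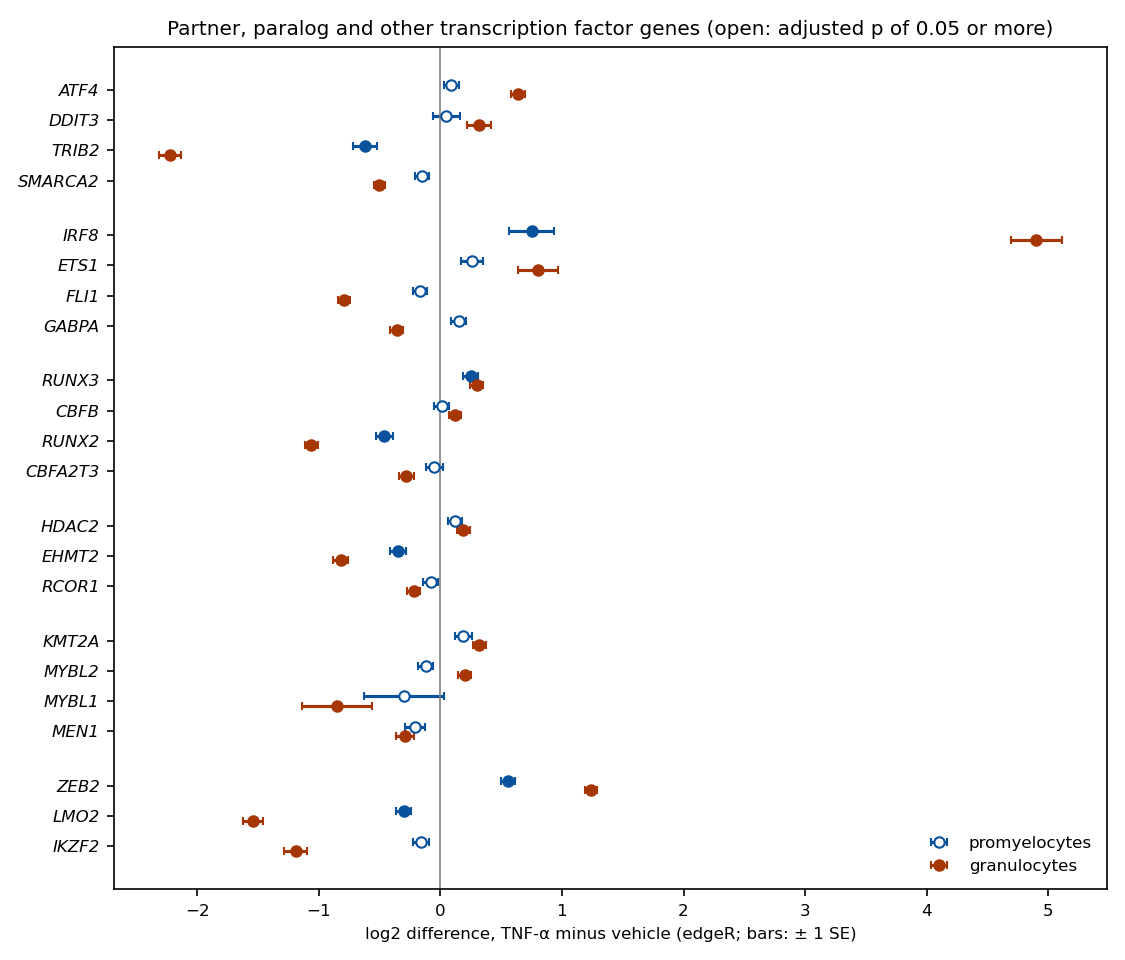
Log2 difference between TNF-α treated and vehicle libraries (edgeR, bars ± 1 SE) for the named partner, paralog and other transcription factor genes, in blocks by list and without the *BCL6* list, in promyelocytes (blue) and granulocytes (orange). Filled symbols mark an adjusted p under 0.05. *IRF8* stands at 4.90 in granulocytes, and *TRIB2* at -2.22 is the lowest value drawn.

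The promyelocyte marker list moved with the promyelocyte results: 3 of its 5 genes fell with TNF-α. Its summed level, most of it *MPO*, was lower in each TNF-α library than in each vehicle library. In granulocytes 0 of the 4 tested genes of that list were called by edgeR or DESeq2, and 1 was at an unadjusted p under 0.05. The granulocyte marker list gave 2 increases and 1 decrease in promyelocytes and 2 increases and 3 decreases in granulocytes. The part of these markers in the results was not tested.

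For each member the gene with the most similar profile over the 12 libraries was sought among 11716 genes, by Pearson's r of log2 CPM. Because the 12 libraries form 4 groups, r mainly reads the group levels, and it is given as a description. *GFI1* was closest to *RPAP2* (r = 0.9948), *MYB* to *SPTBN1* (0.9982), *CEBPE* to *TRIO* (0.9832), *CEBPA* to *DGKG* (0.9956) and *SPI1* to *SBNO2* (0.995). *CEBPB* was closest to *RPS6KA1* (0.9981), *CEBPD* to *S100A11* (0.9968), *CEBPG* to *LINC01215* (0.9945), *RUNX1* to *ZFP36L2* (0.9557) and *BCL6* to *FSTL3* (0.9466). *RPAP2*, for example, had 157 and 143 CPM in vehicle and TNF-α treated promyelocytes and 173 and 92.3 CPM in granulocytes, a smaller range than that of *GFI1*.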

How the data were processed

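The data were 12 RNA-seq libraries of HL-60/S4 cells, 3 in each of 4 groups, assigned from the titles and labels. After depletion of ribosomal RNA the authors sequenced read pairs, aligned them to hg38 with STAR 2.5.3a and deposited raw counts of read pairs per GENCODE 27 gene, made with featureCounts 1.5.2 on the reverse strand (option 2) and not normalized. Antisense transcripts were therefore counted apart, no member shared exon bases with another gene of its strand, and pairs on more than 1 gene were left out by default. Counting error at 22829189 to 31895061 pairs per library is largest for *BCL6*. It also counts in promyelocytes for *CEBPD* (171 to 267 counts per library) and *CEBPB* (313 to 548), whose standard errors were 0.122 and 0.125 there. For the other members it is small, and 3 libraries a group set the precision.

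Promyelocytes and granulocytes were fitted separately in edgeR 4.0.16 (R 4.3.3): TMM, filterByExpr (minimum count 10, minimum total 15), the quasi-likelihood test, prior count 0.125 and Benjamini-Hochberg adjustment over all genes tested, with a threshold of 0.05. Standard errors came from the log2 difference and the F statistic. The difference between responses and the vehicle levels came from 1 fit of all 12 libraries, whose TMM scale also gave the CPM; against the scale of the separate fits it was shifted by -0.0238 (promyelocytes) and 0.0141 (granulocytes) on the log2 scale. The members and gene lists were chosen with earlier results of these data known. The text names, in each list, up to 2 increases and 2 decreases with the largest log2 change in granulocytes among called genes whose log2 CPM averaged 0 or more. *LTF*, *LCN2*, *MMP8*, *CD34*, *PTX3*, *CXCL10* and the marker genes are named outside that rule, after their values were seen. A gene that the rule names and a marker gene are not reported here. Gene symbols came from a reference annotation. Alternatives were DESeq2 size factors, no filter, DESeq2 1.42.0, the replicate number as a block, removal of GC content and length trends (splines with 5 degrees of freedom), all 12 libraries in 1 fit, the vehicle libraries alone, and leaving out each library. The fit was tested on simulated data. Plots used Python 3.11.15 and matplotlib 3.10.9. The NF-κB and GFI1 motifs searched in the promoter windows were shortened after a first search with longer forms had been seen.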

Additional observations from a re-analysis of the deposited data

Results flagged for a closer look

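For 9 of the 10 members the TNF-α response differed between granulocytes and promyelocytes by the edgeR interaction test, which 24% of all genes tested passed. The granulocyte minus promyelocyte difference on the log2 scale was 2.61 for *BCL6* and -1.88 for *GFI1*, the largest of each sign among the members, followed by -1.16 for *MYB*, 0.73 for *SPI1* and -0.71 for *CEBPE*. It was 0.57 for *CEBPD*, 0.39 for *RUNX1*, -0.37 for *CEBPB* and 0.34 for *CEBPG*. *BCL6* moved in opposite directions, down in 3 of 3 promyelocyte and up in 3 of 3 granulocyte libraries with TNF-α against all vehicle libraries of the cell type. *RUNX1* fell in both cell types and more in promyelocytes, whereas *GFI1*, *MYB* and *CEBPE* fell in both and more in granulocytes. The values for *CEBPB* and *CEBPD* are those that depend on the processing.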

How the results depend on the processing

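Over the 590 recalculated member values, 560 had the direction and the side of the threshold first given, 22 were no longer past it, 6 were newly past it and 2 reversed. The reversals came with the GC content and length trends removed, for *CEBPD* in granulocytes (-0.02, adjusted p = 0.854) and for the *CEBPA* difference between responses (-0.09, adjusted p = 0.442), neither past the threshold there. *GFI1*, *MYB*, *CEBPE*, *CEBPA*, *RUNX1* and *BCL6* were called in both cell types under every alternative run. Leaving out 1 library gave 1598 to 2475 genes called in promyelocytes, beside 2405, with 1598 without vehicle replicate 2, and 0 to 1 members increased, 0 in the 4 fits in which *SPI1* missed the threshold (log2 0.17 to 0.33 over 6 fits). *CEBPD* in granulocytes ranged over 0.13 to 0.22 and passed in 2 of 6 such fits, and the *CEBPB* difference over -0.49 to -0.22, passing in 4 of 12. The share of called differences between responses that were positive, 58.9%, was 48.4% with DESeq2 size factors, 44.2% with no filter, 45.8% with DESeq2 and 47.5% after the GC content and length correction. Same-numbered libraries did not deviate together (correlations of -0.146 to -0.0435 in promyelocytes and -0.0674 to -0.0129 in granulocytes). No pairing by number was thus seen, but 3 libraries a group are too few to settle this. With the replicate block 1833 genes were called in promyelocytes, 7721 in granulocytes and 3349 for the difference, the block ended the call of *CEBPD* in granulocytes (adjusted p = 0.0571) and of the *CEBPB* difference (0.124), and it changed no other member call. The depth limits *BCL6* most, with 46 to 185 counts per library.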

Other observations

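Genes outside the lineage program showed how strong the TNF-α signal was in the same libraries. All 10 genes of an NF-κB target list rose in both cell types, with median log2 changes of 3.93 in promyelocytes and 4.75 in granulocytes beside -0.01 and 0 over all genes. *BIRC3*, an inhibitor of apoptosis, went from 1.54 ± 0.23 to 72.9 ± 3.39 CPM (SD, n = 3 each) in promyelocytes and from 0.726 ± 0.17 to 232 ± 5.59 CPM in granulocytes (edgeR adjusted p = 4.77e-19 and 2.28e-39). *TRAF1*, an adaptor of TNF receptors, went from 1.43 ± 0.676 to 32.1 ± 4.39 CPM in promyelocytes and from 2.95 ± 0.551 to 443 ± 38.9 CPM in granulocytes (edgeR adjusted p = 1.75e-13 and 9.75e-39).

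A list of 12 inflammatory genes known as targets of C/EBPβ and C/EBPδ gave 5 increases among 7 genes tested in promyelocytes and 4 among 6 in granulocytes, with no decrease by edgeR, at an adjusted or unadjusted p, or by DESeq2. Over all genes tested 8.15% and 24.4% rose. *TNFAIP6* and, in promyelocytes, *PTX3* (0.0468 CPM with vehicle, 0.768 CPM with TNF-α) passed the filter on low counts through the TNF-α libraries. They could only be called higher, so the absence of decreases is partly fixed in advance. Over the same 2 h *CEBPB* fell and *CEBPD* changed by 0.17 on the log2 scale in granulocytes, and neither passed the test in promyelocytes. *IL1B*, a cytokine of innate immunity, rose from 14.9 ± 1.53 to 92.4 ± 2.68 CPM in promyelocytes and from 10 ± 0.496 to 315 ± 28.8 CPM in granulocytes (log2 2.66 and 4.96, edgeR adjusted p = 5.61e-16 and 8.45e-37). *TNFAIP6*, a hyaluronan-binding protein, stood at 0.0692 and 0.07 CPM in the vehicle groups, under the level of 3 counts, and at 9.92 ± 1.82 and 19.4 ± 1.34 CPM with TNF-α.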
